A study of Mus musculus with 12 samples.

Results

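Neuropeptide precursors are genes whose proteins are cut into small signalling peptides. The 10 described here, Nts, Penk, Pdyn, Tac1, Sst, Npy, Vip, Gal, Cartpt and Adcyap1, were picked by symbol for their function, though with earlier results of these data known. They were found as 10 of the 24346 genes in the deposited tables, and 9 of the 10, all but Npy, passed the filter on low counts that left 17380 genes to test. RNA of C57BL/6 mice was sequenced in 12 libraries, in 4 groups of 3. The groups were midbrain taken 12 weeks after synuclein, 12 weeks after saline, 7 weeks after synuclein and 7 weeks after saline. The sources used here do not give the age of the mice. Synuclein stands for preformed fibrils of α-synuclein with the G51D change, known from familial Parkinson's disease, given as 20 µg at 5 µg/µL into the substantia nigra on both sides, and saline was injected the same way. All 4 groups were cells sorted by flow cytometry for hKO1, an orange fluorescent protein that marked dopaminergic neurons in this study. How hKO1 was brought into the cells is not stated there. The labels do not tell whether the 3 replicates of a group came from different animals, and the p-values therefore describe the spread among these libraries, which may be technical.

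A neuropeptide precursor enters the secretory pathway, is packed into dense-core vesicles with granins, and is cut there by prohormone convertases before the peptides are trimmed by carboxypeptidase E. The peptides act on G-protein-coupled receptors, often at a distance from the release site, and are ended by extracellular peptidases rather than by reuptake. In the midbrain, neurotensin, opioid peptides and substance P are known to act on dopaminergic neurons, partly from axons that arise in the striatum and elsewhere, and smaller groups of midbrain neurons make their own peptides. Many of these genes are known to carry a cyclic AMP response element, the site of the factor CREB, in the promoter.

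The promoters of Sst, Cartpt, Vip and Gal are shown because these were the 4 precursors above their median in replicate 1 of synuclein at 7 weeks and replicate 2 of synuclein at 12 weeks, and that of Nts because it had a different pattern over the 4 groups. Each is the 250 bases before the RefSeq transcription start in GRCm38.p6, written 5′ to 3′ on the strand of the gene, with the motif, where there is a match, in capitals. The Sst window is chr16:23890845-23891094 on the minus strand, the Cartpt window chr13:99900684-99900933 on the minus strand, the Vip window chr10:5638968-5639217 on the plus strand, the Gal window chr19:3414545-3414794 on the minus strand and the Nts window chr10:102490419-102490668 on the minus strand.
Sst: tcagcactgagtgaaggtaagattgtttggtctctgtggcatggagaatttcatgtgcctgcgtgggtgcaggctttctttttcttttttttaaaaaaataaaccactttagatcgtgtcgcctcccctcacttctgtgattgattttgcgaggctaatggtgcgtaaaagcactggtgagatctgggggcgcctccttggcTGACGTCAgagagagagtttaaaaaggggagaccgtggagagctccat
Cartpt: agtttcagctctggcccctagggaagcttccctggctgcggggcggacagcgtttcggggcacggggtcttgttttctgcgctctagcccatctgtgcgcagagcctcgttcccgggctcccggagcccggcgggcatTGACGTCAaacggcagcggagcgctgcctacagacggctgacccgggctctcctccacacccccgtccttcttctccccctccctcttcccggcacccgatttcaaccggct
Vip: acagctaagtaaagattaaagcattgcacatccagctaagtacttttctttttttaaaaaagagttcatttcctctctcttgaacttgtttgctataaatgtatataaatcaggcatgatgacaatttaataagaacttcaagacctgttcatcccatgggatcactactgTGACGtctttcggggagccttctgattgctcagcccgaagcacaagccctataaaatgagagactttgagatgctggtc
Gal: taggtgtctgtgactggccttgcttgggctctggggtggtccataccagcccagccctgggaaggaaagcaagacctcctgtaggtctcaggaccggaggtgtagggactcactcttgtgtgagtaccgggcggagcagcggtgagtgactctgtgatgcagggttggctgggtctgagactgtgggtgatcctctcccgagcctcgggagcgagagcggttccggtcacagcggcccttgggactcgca
Nts: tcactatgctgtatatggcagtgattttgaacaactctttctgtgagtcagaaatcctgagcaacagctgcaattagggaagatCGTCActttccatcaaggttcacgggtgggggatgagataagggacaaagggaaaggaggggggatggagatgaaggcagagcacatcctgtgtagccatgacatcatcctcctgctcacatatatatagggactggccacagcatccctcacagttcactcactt
The motif searched was TGACGTCA, the full response element, and its shorter form TGACG, or CGTCA on the other strand, which the full element contains on both strands. The full element starts 48 bases before the start of Sst and 112 bases before that of Cartpt. The shorter form starts 79 bases before the start of Vip and, as CGTCA, 166 bases before that of Nts. The window of Gal holds neither form. Windows were present for 9 of the 10 members, all but Penk. The full element stood in windows of 2 of these 9 genes and the shorter form in windows of 6 of them (Nts, Tac1, Sst, Vip, Cartpt and Adcyap1). Of all 32851 RefSeq windows of this length, over 27025 genes, 1.55% held the full element and 17.8% the shorter form. These shares are per window, whereas the members, with 11 windows, are counted per gene, so they are not on the same scale. A match is a run of letters in this window and says nothing about binding in these cells.

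The libraries held 2506730 to 5533324 assigned fragments, and 17409 to 21135 genes had at least 1 fragment. The lowest number of genes was in replicate 2 of synuclein at 12 weeks. Markers of the sorted cells were present in every library: 14 dopaminergic genes summed to between 682 and 2863 CPM (counts scaled to the library size, after TMM correction for library composition), with Lmx1b at 0 in 4 libraries. RNA of other cells was present too, since 10 oligodendrocyte markers summed to between 15813 and 43086 CPM and 8 endothelial markers to between 6755 and 15571 CPM. In sorted material like this, fewer cells of a type and less RNA per cell cannot be told apart.

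The precursors were scarce and uneven across libraries, and none of the 9 tested was called in any of 7 comparisons in edgeR's quasi-likelihood test at an adjusted p under 0.05. Vip had the highest mean level, 21.2 ± 27.4 FPKM (fragments scaled for gene length and library size, SD over 12 libraries), followed by Sst with 13.8 ± 11.5 FPKM and Tac1 with 8.79 ± 16.6 FPKM. Cartpt averaged 4.27 ± 5.57 FPKM, Penk 3.75 ± 2.86 FPKM, Adcyap1 3.33 ± 2.82 FPKM and Gal 2.85 ± 4.8 FPKM. The lowest were Pdyn with 2.02 ± 1.76 FPKM, Npy with 1.68 ± 3.86 FPKM and Nts with 1.56 ± 1.27 FPKM. None of the 9 pairs of neighbours in this order differed by more than the SD of their difference over the libraries. With at least 3 fragments counted as detection, Penk, Pdyn, Sst and Vip were detected in 11 of 12 libraries, Adcyap1 in 10, Nts and Tac1 in 8, Cartpt in 5, Gal in 4 and Npy in 3. Summed over the 12 libraries, the members had between 28 fragments for Npy and 1285 for Vip.

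**Figure D1:**
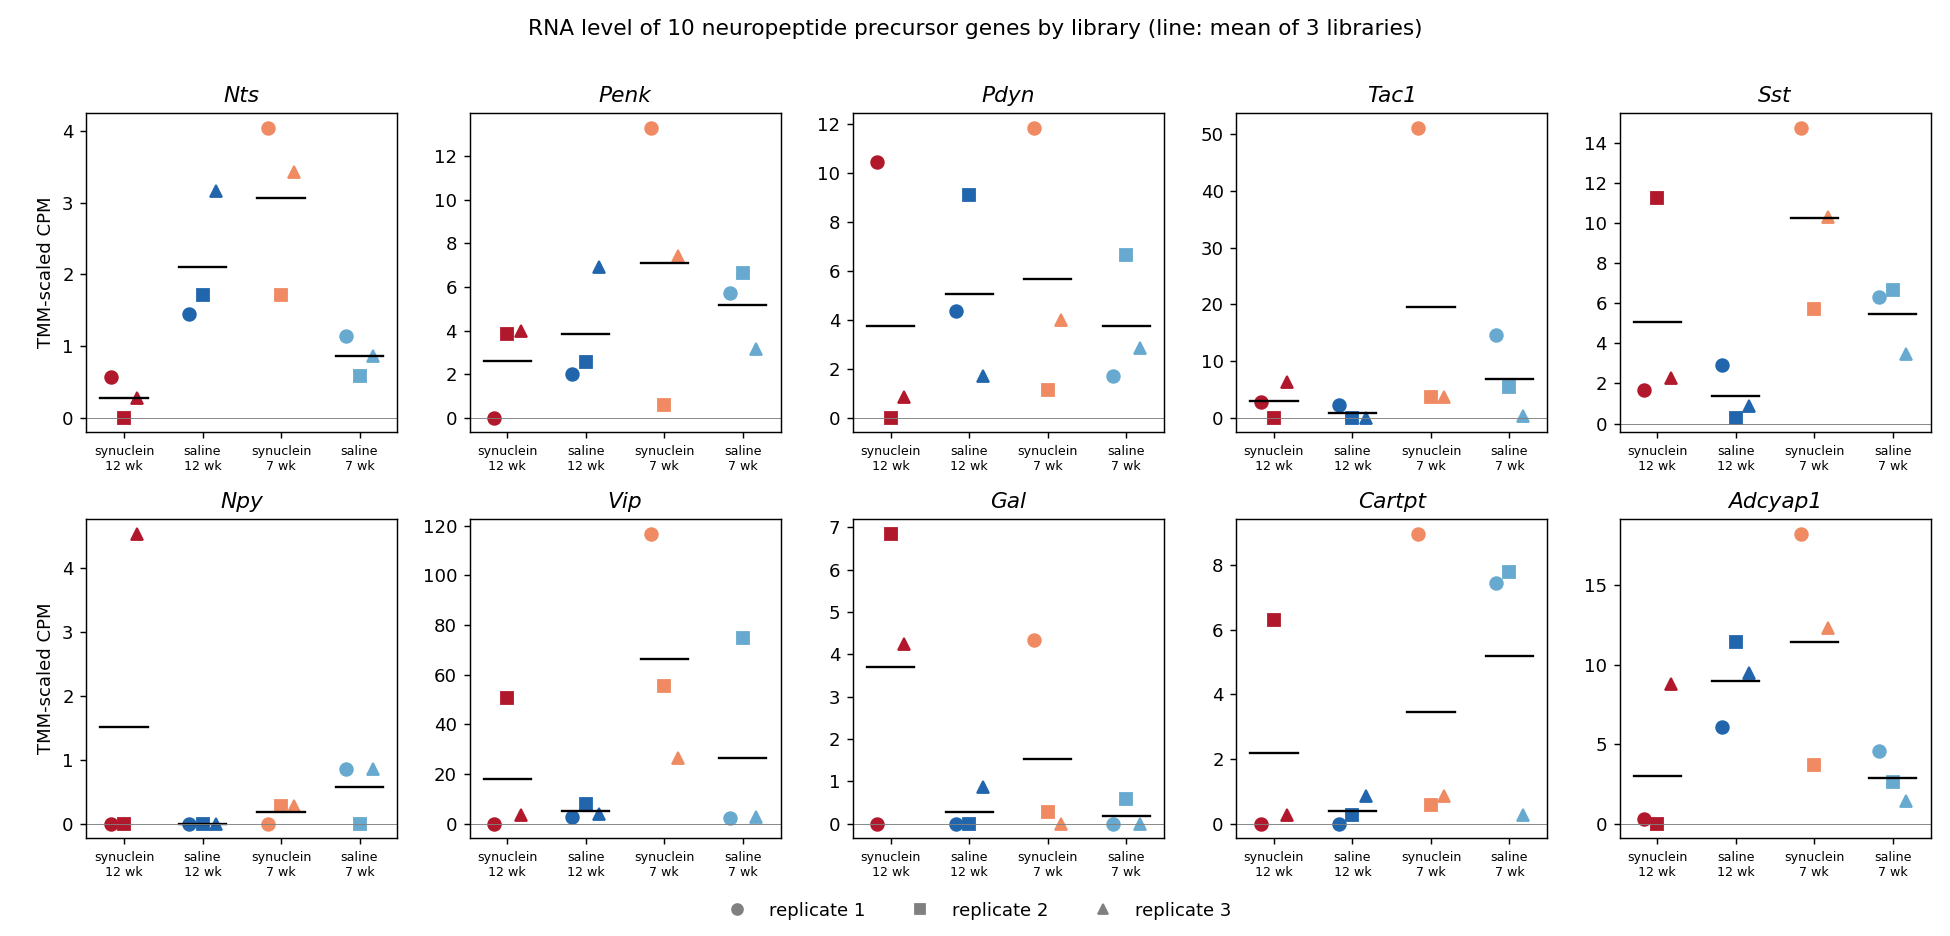
Level of each of the 10 precursors in TMM-scaled CPM (linear axis, own scale per gene) in the 12 libraries, by group, with a symbol per replicate and a line at the mean of 3. Replicate 1 of synuclein at 7 weeks (orange circle) is the highest point for 8 of the 10 genes, a count without the share over all genes. Nts is the gene whose synuclein and saline libraries lie apart at both times.

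The spread between replicates was wide. The biological coefficient of variation in edgeR, the spread between libraries beyond counting error, was 122% for Gal, 112% for Cartpt, 110% for Tac1, 98.3% for Vip, 92.1% for Pdyn, 82.7% for Adcyap1, 81.9% for Penk, 68.3% for Sst and 63.5% for Nts. The median over all tested genes was 44.4%, and 0.339% of tested genes had a higher value than Gal. For synuclein over saline at 12 weeks, log2 folds had a median standard error of 1.17 among the members, against 0.53 over all genes tested.

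Of the 10 precursors, 8 had their highest level in the same library, replicate 1 of synuclein at 7 weeks, and the others were Gal and Npy. The share of all genes highest in that library was not computed, so the count is not shown to be particular to the precursors. The 10 genes summed to 243.5 CPM there, against 15.8 to 111.6 CPM in the other 11 libraries, and Vip made up 48.0% of that sum. Without Vip the sum was 126.7 CPM there. The next highest sum with Vip, 111.6 CPM, was in replicate 2 of saline at 7 weeks, where Vip made up 66.9%. The library with 8 highest precursors also had the highest sum of 4 serotonergic markers, 740.5 CPM, against 9.48 to 186.8 CPM elsewhere, none of the 4 being at 0 in any library. Tph2, the enzyme of serotonin synthesis in neurons, had 504 CPM in it. Of the 17 marker lists, 4 more had their highest sum there: dopaminergic with 2863 CPM, pan-neuronal with 2462 CPM (next 1675 CPM), glutamatergic with 35.9 CPM (next 33.7 CPM) and astrocyte with 465.7 CPM (next 440.3 CPM). The library next in serotonergic sum, with 186.8 CPM, was replicate 2 of synuclein at 12 weeks, in which Gal had its highest level and Nts, Pdyn, Tac1, Npy and Adcyap1 had 0 fragments. Replicate 1 of synuclein at 12 weeks had 0 fragments of Penk, Npy, Vip, Gal and Cartpt. The part of these markers in the levels of the precursors was not tested.

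**Figure D2:**
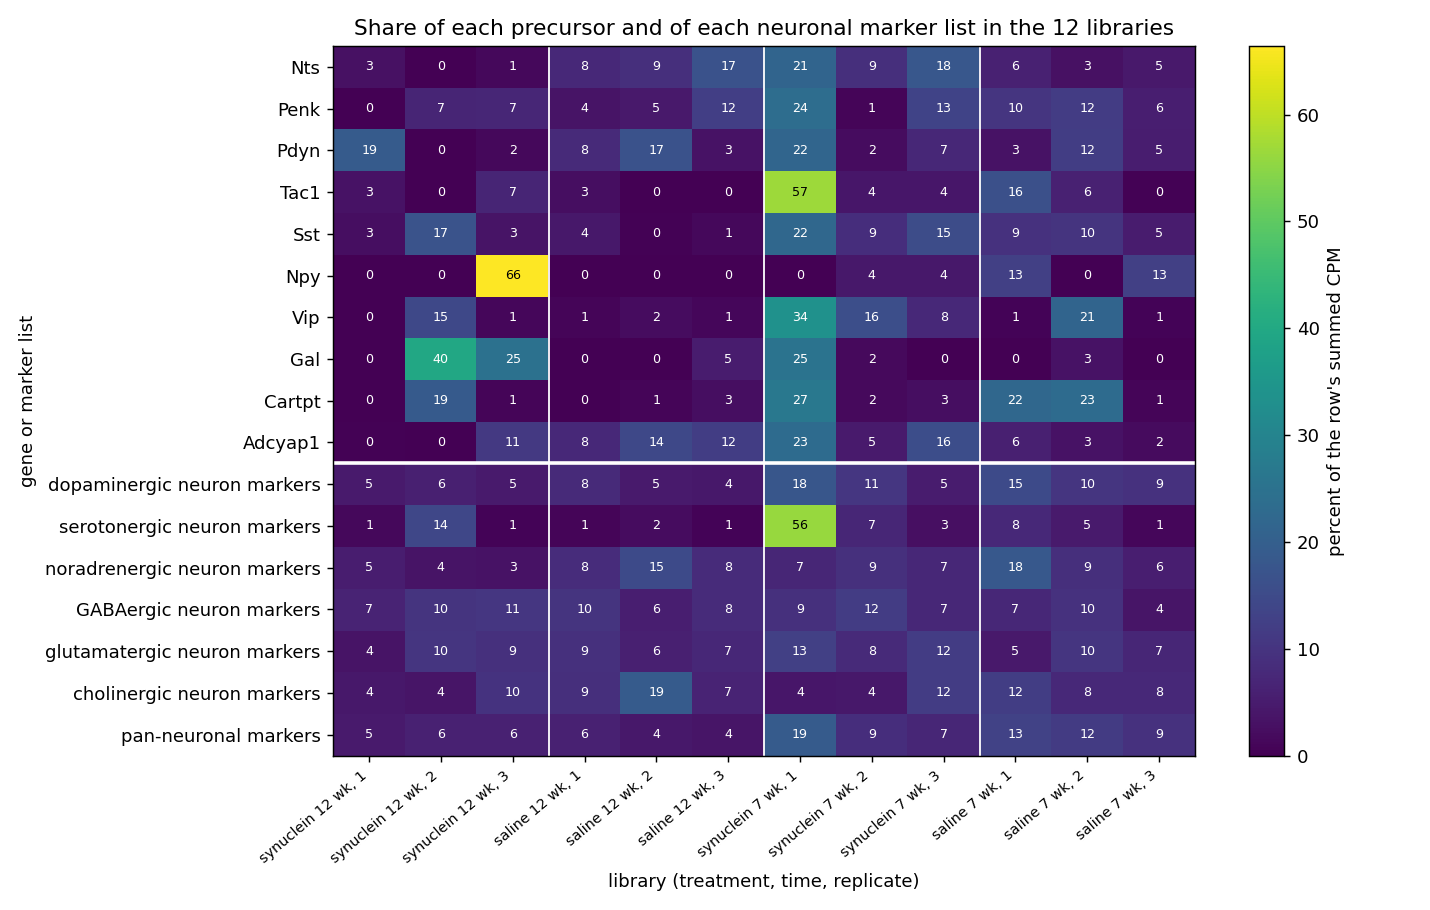
Share of each gene's or marker list's summed CPM that each library holds (percent, each row summing to 100 over the 12 libraries, colour and printed number), with the 10 precursors above and 7 lists of neuronal markers below. The column of replicate 1 of synuclein at 7 weeks holds 56.7% of Tac1 and 56.2% of the serotonergic markers, and the column of replicate 3 of synuclein at 12 weeks holds 66.4% of Npy.

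Nts encodes neurotensin, a peptide that acts on dopaminergic neurons through the receptors Ntsr1 and Ntsr2, and its groups did not overlap in any of the 4 pairwise comparisons. The gene lies on chromosome 10 between 102481756 and 102490418, on the minus strand (gene coordinates here are those of the deposited files, read as GRCm38). At 12 weeks Nts had 0.564, 0 and 0.283 CPM in synuclein libraries, against 1.45, 1.71 and 3.16 CPM in saline libraries. The values at 7 weeks were 4.05, 1.72 and 3.43 CPM in synuclein libraries, against 1.14, 0.577 and 0.861 CPM in saline libraries. Synuclein libraries were thus all below saline libraries at 12 weeks and all above them at 7 weeks. The counts behind these levels were small: 2, 0 and 1 fragments for synuclein and 4, 5 and 12 for saline at 12 weeks, and 13, 7 and 9 for synuclein and 4, 2 and 5 for saline at 7 weeks. The group means were 0.283 ± 0.282 CPM for synuclein and 2.11 ± 0.921 CPM for saline at 12 weeks, and 3.06 ± 1.21 CPM for synuclein and 0.861 ± 0.284 CPM for saline at 7 weeks (SD, n = 3 each). The groups also lay apart in FPKM and in CPM without TMM.

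Synuclein over saline was −2.76 ± 1.14 (log2 fold ± SE) for Nts at 12 weeks, with an unadjusted p of 0.0261 and an adjusted p of 0.887 in edgeR, and 1.79 ± 1.02 at 7 weeks with an adjusted p of 1.0. The difference between these effects, 12 minus 7 weeks, was −4.55 ± 1.53, with an unadjusted p of 0.00813 and an adjusted p of 0.952 in edgeR, so it did not pass the threshold. Over all genes tested 0.00% passed it for this difference, and 780 genes (4.49%) had an unadjusted p under 0.05. Of all genes tested, 0.529% had the non-overlapping pattern of Nts, synuclein below saline at 12 weeks and above it at 7 weeks. Opposite patterns in either order made up 0.731%. For the times, 0.483% were lower at 12 weeks after synuclein and higher after saline without overlap, and 0.397% had groups apart in opposite directions in both pairs of comparisons. Nts passed the low-count filter only through replicates 1 and 3 of synuclein at 7 weeks and replicate 3 of saline at 12 weeks. These lie in the groups where it was high, so neither its p-values nor its non-overlapping groups are support for a difference. From the summed fragments, 3 against 21, the ratio of synuclein to saline at 12 weeks was 0.106 (exact 95% counting interval 0.0202 to 0.354), and after synuclein the ratio of 12 to 7 weeks, 3 against 29 fragments, was 0.0827 (0.0161 to 0.267). These intervals cover counting error only. The fold of 12 over 7 weeks was −3.29 ± 1.14 after synuclein (adjusted p 0.493 in edgeR) and 1.26 ± 1.02 after saline (adjusted p 0.871). Over 21 other settings the difference of the synuclein effects stayed between −5.34 and −2.29, and its lowest adjusted p was 0.530.

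**Figure D3:**
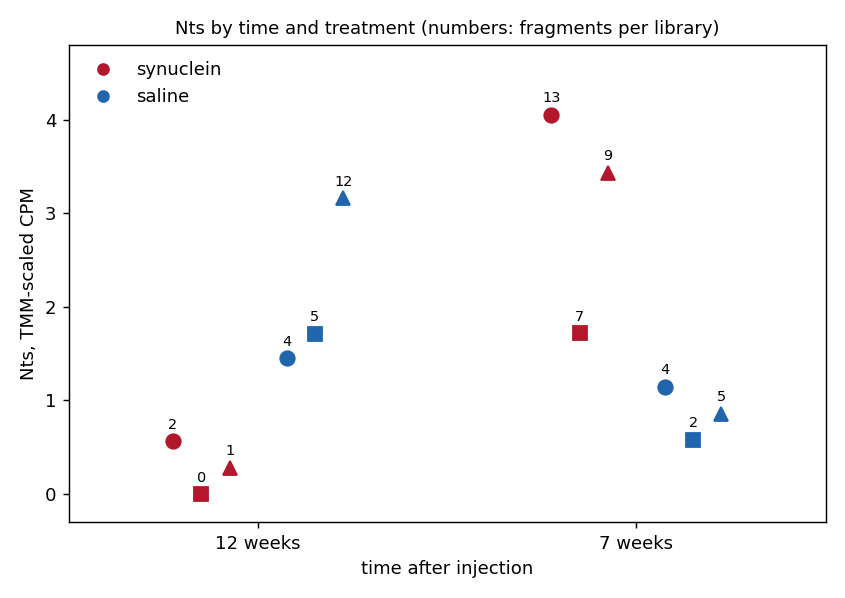
Nts in TMM-scaled CPM by time and treatment, with 12 weeks left of 7 weeks, synuclein in red and saline in blue, and circle, square and triangle for replicates 1, 2 and 3. The number over each point is its fragments. The 3 synuclein libraries have 0 to 2 fragments at 12 weeks and 7 to 13 at 7 weeks, and the saline libraries 4 to 12 and 2 to 5.

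Penk and Pdyn encode the opioid precursors of the enkephalins and dynorphins, peptides of separate classes of striatal projection neurons, and neither was called in any comparison. Penk lies on chromosome 4 between 4133536 and 4138445 on the minus strand, where an antisense gene, A830012C17Rik, overlaps it in GENCODE M21. The sources do not state whether counting used strand, so reads of this pair cannot be told apart. At 12 weeks Penk had 0, 3.84 and 3.97 CPM in synuclein libraries, against 2.03, 2.56 and 6.89 CPM in saline libraries. Libraries taken at 7 weeks had 13.3, 0.572 and 7.43 CPM after synuclein, against 5.72, 6.63 and 3.16 CPM after saline. The groups overlapped in all 4 pairwise comparisons, and the synuclein libraries at 7 weeks held both the highest value and a value below every saline library. Synuclein over saline was −0.55 ± 1.08 at 12 weeks (adjusted p 0.960 in edgeR) and 0.45 ± 1.05 at 7 weeks (adjusted p 1.0).

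Pdyn lies on chromosome 2 between 129686549 and 129699938, on the minus strand. At 12 weeks it had 10.4, 0 and 0.850 CPM in synuclein libraries, against 4.35, 9.12 and 1.72 CPM in saline libraries. At 7 weeks it had 11.9, 1.14 and 4.0 CPM in synuclein libraries, against 1.72, 6.63 and 2.87 CPM in saline libraries. Replicate 1 was the high library of synuclein at both times, and all groups overlapped. Synuclein over saline was −0.43 ± 1.17 at 12 weeks and 0.59 ± 1.17 at 7 weeks (adjusted p 0.972 and 1.0 in edgeR).

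Tac1 encodes the precursor of substance P and neurokinin A, tachykinins of striatal and many brainstem neurons, and 56.7% of its summed CPM came from 1 library. It lies on chromosome 6 between 7555071 and 7562973, on the plus strand. At 12 weeks Tac1 had 2.82, 0 and 6.23 CPM in synuclein libraries, against 2.32, 0 and 0 CPM in saline libraries. The values at 7 weeks were 51.2, 3.72 and 3.71 CPM in synuclein libraries, against 14.6, 5.48 and 0.287 CPM in saline libraries. The value of 51.2 CPM in replicate 1 of synuclein stood far above the other 11. Synuclein over saline at 7 weeks was 1.52 ± 1.31 (adjusted p 1.0 in edgeR), and −0.86 without that library. The fold of 12 over 7 weeks over both treatments was −2.88 ± 1.03, with an unadjusted p of 0.0115 and an adjusted p of 0.274. Leaving that library out gave −1.69, and the fold was −5.10 without replicate 1 of saline at 12 weeks, the saline library at that time that had Tac1 fragments.

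Vip and Adcyap1 encode vasoactive intestinal peptide and PACAP, related peptides of the secretin family that share the receptors Vipr1 and Vipr2, and neither was called in any comparison. Vip, known in a small set of dopaminergic neurons near the dorsal raphe and periaqueductal grey, lies on chromosome 10 between 5639218 and 5647614, on the plus strand. At 12 weeks Vip had 0, 50.5 and 3.68 CPM in synuclein libraries, against 2.90, 7.98 and 4.02 CPM in saline libraries. Libraries taken at 7 weeks had 117, 55.5 and 26.6 CPM after synuclein, against 2.29, 74.7 and 2.58 CPM after saline. Vip was above 25 CPM in 5 of 12 libraries, all 3 of synuclein at 7 weeks and 1 each of synuclein at 12 weeks and saline at 7 weeks, and was at or under 8 CPM in the other 7. The 0 fragments in replicate 1 of synuclein at 12 weeks allow up to 0.877 CPM before TMM scaling, counting error only.

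Synuclein over saline for Vip was 1.86 ± 1.27 at 12 weeks (adjusted p 0.902 in edgeR) and 1.32 ± 1.17 at 7 weeks (adjusted p 1.0). Leaving out replicate 2 of synuclein gave −1.38 at 12 weeks, and leaving out replicate 2 of saline gave 4.72 at 7 weeks. The fold of 12 over 7 weeks over both treatments was −2.14 ± 0.87, with an adjusted p of 0.386 in edgeR. With replicate 2 of synuclein at 12 weeks left out it was −3.75 with an adjusted p of 0.0338, which was the 1 call among 1323 values of the members under other settings.

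Adcyap1 lies on chromosome 17 between 93199422 and 93205489, on the plus strand. At 12 weeks it had 0.282, 0 and 8.78 CPM in synuclein libraries, against 6.09, 11.4 and 9.48 CPM in saline libraries. At 7 weeks it had 18.2, 3.72 and 12.3 CPM in synuclein libraries, against 4.58, 2.60 and 1.43 CPM in saline libraries. Its means ran as those of Nts did, 3.02 ± 4.99 CPM in synuclein and 8.99 ± 2.69 CPM in saline libraries at 12 weeks, and 11.4 ± 7.29 CPM in synuclein and 2.87 ± 1.59 CPM in saline libraries at 7 weeks. Synuclein and saline libraries overlapped at both times, whereas the saline libraries at 12 weeks lay all above those at 7 weeks (1.63 ± 1.08, adjusted p 0.812 in edgeR), as did 8.34% of all genes tested. The difference of the synuclein effects, 12 minus 7 weeks, was −3.54 ± 1.52, with an unadjusted p of 0.0320 and an adjusted p of 0.952, and ran from −7.66 to −2.91 with 1 library left out.

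Sst and Npy encode somatostatin and neuropeptide Y, inhibitory peptides made together in many interneurons, and were present at very different depths. Sst lies on chromosome 16 between 23889581 and 23890844, on the minus strand, and was the 1 precursor with at least 1 fragment in all 12 libraries. At 12 weeks Sst had 1.69, 11.2 and 2.27 CPM in synuclein libraries, against 2.90, 0.285 and 0.861 CPM in saline libraries. The values at 7 weeks were 14.8, 5.72 and 10.3 CPM in synuclein libraries, against 6.30, 6.63 and 3.44 CPM in saline libraries. The saline libraries at 12 weeks lay all below those at 7 weeks (−1.99 ± 0.93, adjusted p 0.669 in edgeR), as did 7.83% of all genes tested, and the synuclein libraries of the 2 times overlapped. Synuclein over saline was 1.89 ± 0.93 at 12 weeks and 0.91 ± 0.86 at 7 weeks (adjusted p 0.889 and 1.0). Over both times it was 1.40 ± 0.63, with an unadjusted p of 0.0406 and an adjusted p of 1.0. Leaving out replicate 2 of synuclein at 12 weeks gave 0.58 at that time and 0.73 over both times, and leaving out replicate 1 of saline at 12 weeks gave 3.09 and 2.0.

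Npy lies on chromosome 6 between 49822729 and 49829505, on the plus strand, and did not pass the filter on low counts. At 12 weeks it had 0, 0 and 19 fragments in synuclein libraries, against 0, 0 and 0 in saline libraries. At 7 weeks it had 0, 1 and 1 fragments in synuclein libraries, against 3, 0 and 4 in saline libraries. Of its 28 fragments, 19 came from replicate 3 of synuclein at 12 weeks, where its level was 4.53 CPM. For 19 against 0 fragments, the exact 95% counting interval of the ratio of synuclein to saline at 12 weeks starts at 3.45, and the ratio is 4.68 if the saline sum is put at a floor of 3 fragments. Both rest on that library. At 7 weeks the ratio of synuclein to saline, 2 against 7 fragments, was 0.353 (exact 95% counting interval 0.0358 to 1.85).

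Gal and Cartpt encode galanin and the precursor of CART peptide, which in rodents are known from brainstem and hypothalamic neurons, Cartpt also from the Edinger-Westphal nucleus of the midbrain. Gal lies on chromosome 19 between 3409917 and 3414457, on the minus strand. At 12 weeks Gal had 0, 6.86 and 4.25 CPM in synuclein libraries, against 0, 0 and 0.861 CPM in saline libraries. Libraries taken at 7 weeks had 4.34, 0.286 and 0 CPM after synuclein, against 0, 0.577 and 0 CPM after saline. The 3 values above 1 CPM were all in synuclein libraries, yet each synuclein group also held a library at 0. Gal passed the filter on low counts only through those 3 libraries, so its p-values for synuclein over saline are no support for a difference. The summed fragments were 50 in synuclein and 3 in saline libraries at 12 weeks, a ratio of 12.3 (exact 95% counting interval 3.98 to 61.7), and 15 and 2 at 7 weeks, a ratio of 9.27 (2.16 to 83.5). These intervals cover counting error only and leave out the spread between libraries. The synuclein fragments came from replicates 2 and 3 at 12 weeks (33 and 17), and 14 of the 15 from replicate 1 at 7 weeks. Synuclein over saline over both times was 3.16 ± 1.25 in edgeR, with an unadjusted p of 0.0210 and an adjusted p of 1.0. At 12 weeks the fold was 3.53 ± 1.73, between 2.77 and 6.74 with any 1 library left out. At 7 weeks it was 2.79 ± 1.81, and leaving out replicate 1 of synuclein gave −0.34.

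Cartpt lies on chromosome 13 between 99898483 and 99900683, on the minus strand. At 12 weeks it had 0, 6.31 and 0.283 CPM in synuclein libraries, against 0, 0.285 and 0.861 CPM in saline libraries. At 7 weeks it had 8.97, 0.572 and 0.857 CPM in synuclein libraries, against 7.44, 7.79 and 0.287 CPM in saline libraries. Each group but saline at 12 weeks thus held libraries above 6 CPM beside others under 1 CPM. Synuclein over saline was 2.42 ± 1.61 at 12 weeks and −0.57 ± 1.37 at 7 weeks (adjusted p 0.902 and 1.0 in edgeR), and the value at 12 weeks was −1.22 without replicate 2 of synuclein. The fold of 12 over 7 weeks after saline was −3.64 ± 1.62, with an unadjusted p of 0.0380 and an adjusted p of 0.639.

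For synuclein against saline, 0 of the 9 tested precursors were called at 12 weeks, at 7 weeks or over both times, and 0.00% of all genes tested were called in each of these comparisons by edgeR. At an unadjusted p under 0.05 the members numbered 1 at 12 weeks (Nts), 0 at 7 weeks and 2 over both times (Sst and Gal). The same threshold took 968 genes (5.57%) at 12 weeks, 285 genes (1.64%) at 7 weeks and 431 genes (2.48%) over both times. Gal passed the filter on low counts only through synuclein libraries, and Nts only through libraries of the groups where it was high. Their places among the members under this threshold are therefore no support for a difference. DESeq2 called 12 genes at 12 weeks, 0 at 7 weeks and 3 over both times and limma-voom 0 in each, none of them a member. The fitted fold was above 0 for 5 of 9 members at 12 weeks, against 47.3% of all genes tested. The median was 1.86 for the members, against −0.04 over all genes. For 7 weeks the fold was above 0 in 8 of 9, against 51.2% of all genes, with a median of 1.32 against 0.01 over all genes. The counts and medians at both times include Gal and Nts, whose signs the filter on low counts favoured. Of the 8 members above 0 at 7 weeks, all but Gal had their highest level in replicate 1 of synuclein at that time. These counts and medians are therefore no support for a shift of the members as a set. With 1 library left out, the folds at 7 weeks fell as low as −0.86 for Tac1, −0.52 for Pdyn, −0.35 for Penk and −0.34 for Gal. Those of Nts, Sst, Vip and Adcyap1 stayed above 0. Groups that did not overlap were found for Nts alone among the members, below saline at 12 weeks with 6.67% of all genes and above it at 7 weeks with 4.70%. None of the members lay wholly above saline at 12 weeks or wholly below it at 7 weeks, where 4.01% and 3.75% of all genes did.

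**Figure D4:**
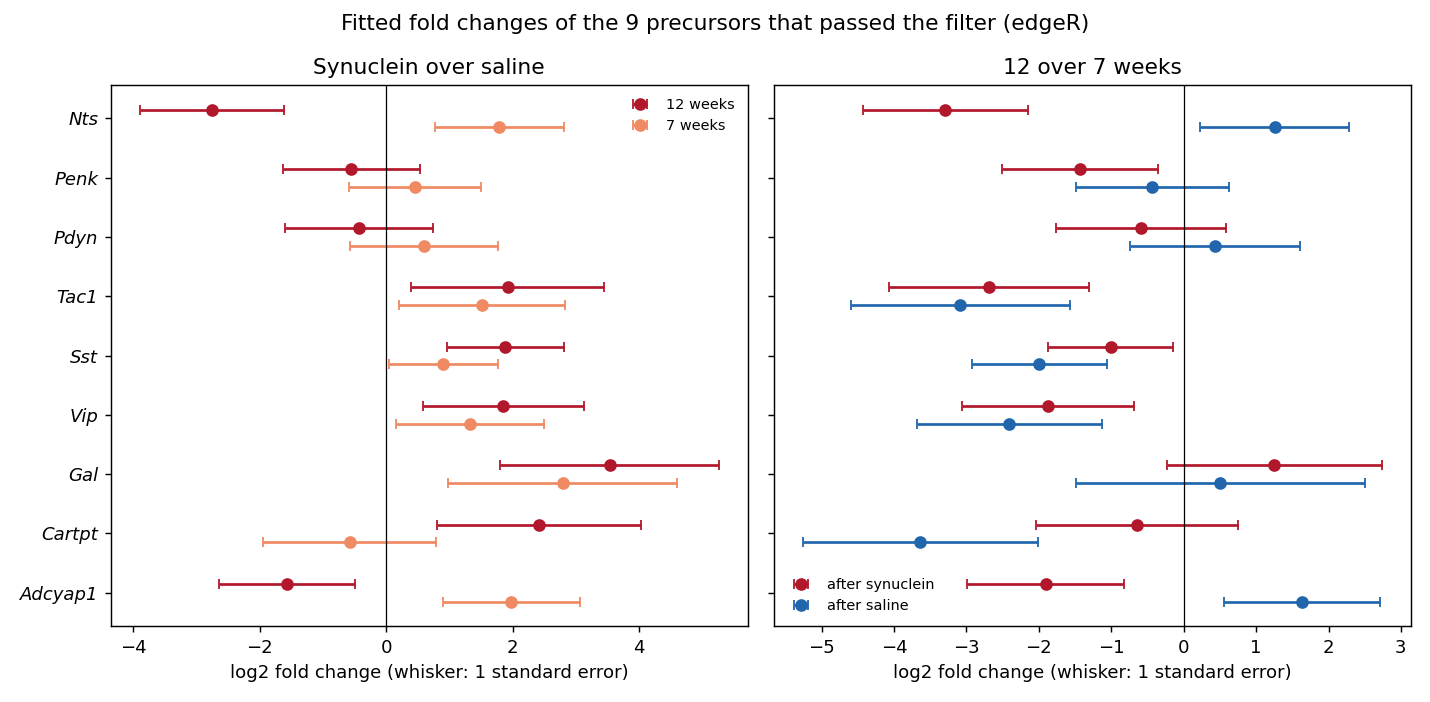
Fitted log2 folds of the 9 tested precursors with 1 standard error, for synuclein over saline (left panel, 12 and 7 weeks) and for 12 over 7 weeks (right panel, after synuclein and after saline). Nts has −2.76 at 12 and 1.79 at 7 weeks in the left panel, and the bars of Gal and Cartpt are among the widest.

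For 12 against 7 weeks over both treatments, 0 of the 9 members were called, against 145 of all genes tested (0.834%), 94 higher and 51 lower at 12 weeks. At an unadjusted p under 0.05, 3 members (Tac1, Sst and Vip) were lower at 12 weeks, as 1707 genes (9.82%) passed that threshold in either direction. The folds of Sst and Vip, −1.50 ± 0.63 and −2.14 ± 0.87, had adjusted p-values of 0.407 and 0.386 in edgeR. The fold was below 0 for 8 of 9 members, with a median of −1.02 against −0.03 over all genes, 47.0% of which had a fold above 0. Among these 8, Pdyn (−0.08 ± 0.83) and Adcyap1 (−0.14 ± 0.75) were near 0, and each reversed in 6 of 21 other settings. The same 8 had their highest level in replicate 1 of synuclein at 7 weeks. Of 20 other neuropeptide precursors tested, 10 were lower and 10 higher at 12 weeks, with a median of −0.24. In synuclein alone 1 member passed the unadjusted threshold (Nts, 7.58% of all genes), and in saline alone 2 (Sst and Cartpt, 7.42% of all genes). The limit that the filter sets on Nts, given above, holds here too. DESeq2 called 82 genes in synuclein and 165 in saline and limma-voom 0 in each, where edgeR called 0.00%, and none was a member. After synuclein, Nts was again the 1 member whose groups lay apart, lower at 12 weeks with 7.13% of all genes, and no member lay wholly higher, where 5.13% of all genes did. The dopaminergic sum was lower on average at 12 weeks. It averaged 829 ± 95.2 CPM in synuclein and 913 ± 326 CPM in saline libraries at 12 weeks, and 1793 ± 1029 CPM in synuclein and 1871 ± 483 CPM in saline libraries at 7 weeks. Its libraries overlapped between the times, with 811 CPM in replicate 3 of synuclein at 7 weeks and 1286 CPM in replicate 1 of saline at 12 weeks. The oligodendrocyte sum averaged 32279 ± 5845 CPM in synuclein and 36012 ± 9593 CPM in saline libraries at 12 weeks, and 18578 ± 1745 CPM in synuclein and 19277 ± 4929 CPM in saline libraries at 7 weeks. The part of either in these folds was not tested.

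Of 44 other precursors, 20 were tested, and 1 of them, Cck, was called in any comparison. Cck, the precursor of cholecystokinin, a peptide of many midbrain dopaminergic neurons, had 11.8, 10.7 and 11.3 CPM in synuclein and 27.0, 16.8 and 17.8 CPM in saline libraries at 12 weeks, and 45.7, 47.2 and 26.6 CPM in synuclein and 30.3, 41.0 and 40.2 CPM in saline libraries at 7 weeks. It fell at 12 against 7 weeks over both treatments by 1.34 ± 0.27 on the log2 scale (adjusted p 0.0288 in edgeR), and the highest library at 12 weeks, with 27.0 CPM, just passed the lowest at 7 weeks, with 26.6 CPM. Its level averaged 54.5 ± 27.2 FPKM over the 12 libraries, above that of Vip. The call was lost in 9 of 21 other settings, with an adjusted p of 0.185 when replicates 1 and 2 of synuclein at 12 weeks were left out. Pomc, the precursor of melanocortins and β-endorphin, averaged 27.6 ± 16.7 FPKM, Nucb2, of nesfatin, 19.1 ± 7.62 FPKM and Npff 15.2 ± 7.43 FPKM, and 0 of these 3 were called.

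All 13 granins and dense-core vesicle proteins were tested, and 13 of 13 had a fold below 0 at 12 against 7 weeks over both treatments, with a median of −0.66 against −0.03 over all genes. Pan-neuronal and dopaminergic markers were lower too. Of the pan-neuronal genes, 10 of 10 had a fold below 0, 2 of them called, with a median of −1.03. Of tested dopaminergic genes, 13 of 13 did, 2 of them called, with a median of −1.26. Other neuronal lists varied. All tested serotonergic (4), glutamatergic (3) and noradrenergic (3) genes were lower. Striatal (3 higher, 4 lower), GABAergic (1 and 2) and cholinergic (1 and 1) markers were mixed, and 3 of 3 tested hypothalamic markers were higher. The pan-neuronal sum averaged 723 ± 104 CPM in synuclein and 620 ± 154 CPM in saline libraries at 12 weeks, and 1492 ± 846 CPM in synuclein and 1456 ± 235 CPM in saline libraries at 7 weeks. The part of these in the granin folds was not tested. Scg2, secretogranin II, was the 1 called, and fell by 1.66 ± 0.37 on the log2 scale (adjusted p 0.0452 in edgeR). It had 35.5, 130 and 70.3 CPM in synuclein and 106, 39.3 and 67.2 CPM in saline libraries at 12 weeks, and 494, 222 and 87.1 CPM in synuclein and 225, 264 and 138 CPM in saline libraries at 7 weeks. The highest value, 494 CPM, was in the library where 8 precursors were highest, and without that library the fold was −1.25 with an adjusted p of 0.134. The call was lost in 13 of 21 other settings. Cpe, the carboxypeptidase that trims the peptides, averaged 138 ± 30.7 FPKM, Pcsk1n 55.3 ± 21.9 FPKM and Scg5 54.3 ± 17.2 FPKM.

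Of 15 prohormone-processing enzymes 14 were tested, and Pcsk6, a proprotein convertase also known from glia, rose at 12 against 7 weeks over both treatments by 1.52 ± 0.30 on the log2 scale (adjusted p 0.0288 in edgeR). It had 42.9, 16.2 and 38.8 CPM in synuclein and 34.5, 39.9 and 45.7 CPM in saline libraries at 12 weeks, and 15.3, 13.2 and 16.0 CPM in synuclein and 10.9, 13.8 and 7.17 CPM in saline libraries at 7 weeks. All 6 libraries at 12 weeks lay above all 6 at 7 weeks. The call was lost in 10 of 21 other settings. Ctsl and Tpst2 averaged 80.2 ± 17.1 FPKM and 73.9 ± 23.6 FPKM. Of 25 receptors of the member peptides 20 were tested, and 0 were called in any of the 7 comparisons. The best measured were Sort1, a sorting receptor that binds neurotensin, with 24.6 ± 6.45 FPKM, and Ntsr2, a neurotensin receptor, with 18.0 ± 16.0 FPKM. Gpr160 averaged 13.7 ± 7.00 FPKM and Npy1r, a receptor of neuropeptide Y, 6.56 ± 2.39 FPKM. All 11 peptidases that end peptide signals were tested and 0 were called in the 7 comparisons, with Ece1 at 66.8 ± 15.5 FPKM, Ece2 at 10.3 ± 5.93 FPKM, Prep at 10.3 ± 4.92 FPKM and Thop1 at 9.39 ± 4.76 FPKM. Over all genes, the share called was 0.834% for 12 against 7 weeks over both treatments and 0.00% elsewhere.

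Among 15809 other genes, those most like each member over the 12 libraries were found by Pearson's correlation of log2 CPM, as a description, since all points share libraries and depth. Nts and Npy had at least 10 fragments in fewer than 3 libraries and were left out. The most alike were Abr for Sst (r = 0.96), Thap6 for Pdyn (r = 0.93), Rltpr and Klhl1 for Cartpt (r = 0.93 each), Pnmal2 for Tac1 (r = 0.92) and Erich1 for Adcyap1 (r = 0.92). Wnt9b led for Vip (r = 0.89), Sntg1 for Penk (r = 0.88) and Fam134a for Gal (r = 0.83). The granin Chgb, r = 0.87, was the next after Wnt9b for Vip, with its highest value, 154 CPM, in replicate 1 of synuclein at 7 weeks. Of the 24 genes so named, 3 for each of 8 members, 9 were highest in that library and 6 in replicate 2 of synuclein at 12 weeks. They were chosen for following the members over these same 12 libraries, so high libraries in common are built in. The share of all genes highest in these libraries was not computed. Each r is among the highest of 15809 and was not set against chance.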

How the data were processed

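RNA was measured in 12 libraries of sorted mouse midbrain cells, 4 groups of 3 taken from the labels. Reads were aligned with TopHat2 2.0.13 and Bowtie2 2.2.3 and quantified by Cufflinks 2.2.1, as the submitters' processing notes list these tools. The authors deposited estimated counts and FPKM per gene. The deposited estimated counts are multiples of 1 step per library (0.685 to 1.30): dividing by it made 98.7% to 98.9% of nonzero values whole within 0.02, and these whole numbers are the fragments given. No source used here names the build, and coordinates, moved to count from 1, are read as GRCm38 from their match to GENCODE M21.

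The estimated counts were rounded and fitted in edgeR 4.0.16 (R 4.3.3) with filterByExpr, TMM and a quasi-likelihood model of 4 group means over all 12 libraries, with 8 residual degrees of freedom. P-values were adjusted by Benjamini-Hochberg over 17380 genes, with a threshold of 0.05. Folds are log2 values with standard errors. These were back-calculated as the absolute log2 fold over the square root of the quasi-likelihood F statistic, and are approximate. Group levels are CPM, TMM-scaled, and levels between genes are FPKM. A count of 0 was given a limit of 3 fragments. Intervals are exact 95% ones for counting error. Fragments may include PCR copies, which are not independent molecules. Alternatives were DESeq2 1.42.0, limma 3.58.1 (voom on counts, trend on log2(FPKM + 0.1) and log2(FPKM + 1)), other size factors, no filter, recovered fragments, the replicate number as a block, and libraries left out. The fit was tested on simulated counts with known changes. The genes named are all 10 members, the 3 most alike of each and, per pathway list, called genes or the 4 highest in FPKM. Members, lists and settings were chosen with earlier results of these data known.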

Additional observations from a re-analysis of the deposited data

Results flagged for a closer look

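For Nts the fitted folds of synuclein over saline had opposite signs at 12 and 7 weeks. Every synuclein library was below every saline library at 12 weeks and above every saline library at 7 weeks. The difference of the folds was −4.55 on the log2 scale. The test of that difference in edgeR had an unadjusted p of 0.00813 and an adjusted p of 0.952, so it did not pass the threshold. Of all genes tested, 0.529% had the same pattern of groups that do not overlap. Nts passed the low-count filter only through libraries of the groups where it was high, so these values are no support for a difference. The 12 libraries held 64 Nts fragments in all, 3 of them in synuclein libraries at 12 weeks. Replicate 2 of synuclein at 12 weeks, with 0 Nts fragments, also had the lowest number of genes with a fragment, 17409. The part of this in the Nts pattern was not tested.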

How the results depend on the processing

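Of 1323 member values over 21 other settings, 1 was called, Vip without replicate 2 of synuclein at 12 weeks. The sign of 36 of 63 member folds held in all 21 settings, and 83 values reversed. Counts of 0 to 19 fragments per library for Npy and 0 to 13 for Nts limit all their folds. At 1 fragment in place of 3, Npy was detected in 5 in place of 3 libraries and Cartpt in 10 in place of 5. The cause of the changes below was not tested.

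Genes called for synuclein against saline at 12 weeks (0 in edgeR) numbered 12 with DESeq2, 2 with log2(FPKM + 0.1) and 1 with log2(FPKM + 1), and over both times (0) 3 with DESeq2 and 1 with log2(FPKM + 0.1). The difference of the synuclein effects (0) had 1 with either FPKM fit. For 12 against 7 weeks after saline (0) there were 165 with DESeq2, 7 with no filter, 2 and 1 with the FPKM fits and 14 without replicates 1 and 2 of synuclein at 12 weeks, and after synuclein (0) 82 with DESeq2. Over both treatments (145) there were 468 with DESeq2, 1 and 5 with the FPKM fits and 0 without both of those replicates. With 1 library left out the counts ran from 0 to 1 for synuclein against saline at 7 weeks, at 12 weeks and over both times, from 0 to 0 for the difference, from 0 to 9 after saline, from 0 to 2 after synuclein and from 24 to 214 over both treatments.

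Replicate numbers did not pair the libraries: deviations of 18 same-numbered pairs correlated between −0.060 and 0.11, with 1 pair over 0.1, and 5 of 12 libraries were most alike with their own number. The replicate block gave 34 calls for 12 against 7 weeks after saline and 246 over both treatments. It turned the fold of Pdyn and of Adcyap1 for synuclein over saline over both times to −0.46 and −0.25, and the difference of the synuclein effects for Vip to −2.43.

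With limma-voom the reversed folds were −0.29 for Penk at 7 weeks, −0.61 for Vip at 12 weeks, −0.85 for Pdyn and −0.84 for Adcyap1 over both times, and −3.43 for the difference of Vip. With log2(FPKM + 0.1) they were −0.21 for Penk at 7 weeks, −0.60 for Vip at 12 weeks, −0.73 for Pdyn and −0.71 for Adcyap1 over both times, and −3.41 for the difference of Vip. With log2(FPKM + 1) they were −0.17 for Pdyn and −0.11 for Adcyap1 over both times, −0.027 for the difference of Tac1 and −2.18 for that of Vip. Without both of those replicates of synuclein at 12 weeks, which leaves 1 synuclein library there, assumed to vary like the other groups, synuclein over saline was 0.060 for Penk, −0.42 for Vip and −0.38 for Cartpt at 12 weeks. It was 0.26 for Penk, −0.96 for Pdyn and −0.48 for Cartpt over both times. The difference was −0.16 for Sst and −1.74 for Vip, and 12 over 7 weeks over both treatments was 0.63 for Adcyap1.

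With 1 library left out in turn, folds that reversed ran as follows. Synuclein over saline at 12 weeks ran from −0.98 to 0.19 for Penk, −3.43 to 0.33 for Pdyn, −1.38 to 2.5 for Vip and −1.22 to 3.67 for Cartpt. At 7 weeks it ran from −0.35 to 1.0 for Penk, −0.52 to 1.25 for Pdyn, −0.86 to 2.74 for Tac1 and −0.34 to 5.43 for Gal. Over both times it ran from −0.43 to 0.33 for Penk, −1.43 to 0.45 for Pdyn, −0.041 to 3.31 for Vip, −0.91 to 1.54 for Cartpt and −1.86 to 0.51 for Adcyap1. The difference of the synuclein effects ran from −4.0 to 0.096 for Pdyn, −0.79 to 4.92 for Tac1, −0.31 to 2.17 for Sst, −2.80 to 1.26 for Vip, −1.85 to 3.96 for Gal and −0.62 to 5.25 for Cartpt. For 12 over 7 weeks, Pdyn ran from −0.31 to 1.11, Vip from −2.94 to 1.0 and Gal from −2.66 to 3.18 after saline, and Pdyn from −3.58 to 0.53 and Cartpt from −4.25 to 1.62 after synuclein. Over both treatments Pdyn ran from −1.58 to 0.49, Gal from −0.68 to 2.47 and Adcyap1 from −2.20 to 0.18.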
